A study of Mus musculus with 12 samples.

Results

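The endothelial leukocyte adhesion molecules are 5 genes, Icam1, Icam2, Vcam1, Sele and Selp, whose products let circulating leukocytes hold on to the vessel wall. They were taken as all probes that the array platform's annotation assigns to these symbols, so 5 of the 19057 genes with a probe, and 8 of 45281 probes: 4 for Vcam1 and 1 for each of the other genes. All 8 passed the filter on dim probes, by which 25796 probes were tested. The probes were read in carotid arteries of mice labelled C57Bl/6J, 1 day after the left common carotid artery had been partially ligated. That operation brings disturbed flow to the left artery, and the right artery was left untouched. There were 4 groups of 3 arrays: ligated left arteries of fibulin-5 knockout mice (KO LCA), ligated left arteries of wild-type mice (WT LCA), untouched right arteries of knockout mice (KO RCA) and untouched right arteries of wild-type mice (WT RCA). Both genotypes had the operation, so the right artery is an unligated vessel of an operated mouse, and no unoperated mice are among the samples. Fibulin-5, the product of Fbln5, is an extracellular protein needed to assemble elastic fibres. The labels call the mice FibV KO while the design text speaks of a knockdown, and the allele, age and sex are not given. The labels do not state that the 3 arrays of each group are different mice, and p-values therefore reflect only the spread among these samples, which may be technical. The study asked how fibulin-5 affects stiffening, remodelling and atherosclerosis of arteries under disturbed flow.

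Leukocytes leave the blood in steps. The selectins, E-selectin (Sele) and P-selectin (Selp), catch sugar-bearing ligands on passing leukocytes and make them roll, and the immunoglobulin-family molecules ICAM-1, ICAM-2 and VCAM-1 then bind leukocyte integrins and hold the cells still. E-selectin, ICAM-1 and VCAM-1 are known to be made anew when cytokines or disturbed flow activate NF-kB in endothelium, P-selectin waits ready-made in Weibel-Palade bodies and in platelet granules, and ICAM-2 is present on resting endothelium. Regions of disturbed flow are where ICAM-1 and VCAM-1 are classically found in the arterial wall.

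The promoters of Icam1, Sele and Selp are shown because these genes are known targets of inflammatory signalling and the RefSeq promoter table, on build GRCm38.p6, held these 3 of the 5 genes. Each window holds 300 bases around 1 transcript start of that table, from which positions are counted, and for Sele that start lies inside the gene's longer annotated span. Capitals mark every match, on either strand, to an NF-kB-like motif (GGNNNTTCC), an AP-1-like motif (TGANTCA) or a TATA box (TATAAA). No match overlaps another, except that the first NF-kB-like site of Icam1 matches the pattern on both strands and counts once.
Icam1, chr9:21015690-21015989, plus strand: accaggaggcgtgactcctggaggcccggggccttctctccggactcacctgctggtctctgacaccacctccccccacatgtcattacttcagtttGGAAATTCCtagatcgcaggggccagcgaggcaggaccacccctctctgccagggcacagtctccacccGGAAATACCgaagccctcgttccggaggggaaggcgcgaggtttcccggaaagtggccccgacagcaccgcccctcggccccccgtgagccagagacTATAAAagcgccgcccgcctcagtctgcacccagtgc
Sele, chr1:164047984-164048283, plus strand: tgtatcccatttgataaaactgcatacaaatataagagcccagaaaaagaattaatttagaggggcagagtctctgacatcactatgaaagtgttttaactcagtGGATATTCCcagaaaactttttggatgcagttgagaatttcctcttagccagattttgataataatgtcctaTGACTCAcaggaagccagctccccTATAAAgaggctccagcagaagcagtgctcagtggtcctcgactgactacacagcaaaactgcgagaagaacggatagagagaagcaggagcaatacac
Selp, chr1:164115014-164115313, plus strand: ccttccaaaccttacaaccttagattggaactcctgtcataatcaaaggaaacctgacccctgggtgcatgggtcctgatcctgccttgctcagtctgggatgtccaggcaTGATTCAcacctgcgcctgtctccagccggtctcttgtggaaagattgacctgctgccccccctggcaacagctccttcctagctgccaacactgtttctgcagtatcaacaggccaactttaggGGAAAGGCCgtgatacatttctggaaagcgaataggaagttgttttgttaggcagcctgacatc
The Icam1 window held GGAAATTCC from position -153 relative to the start, GGAAATACC, whose complement matches on the minus strand, from -84, and TATAAA from 14. The Sele window held GGATATTCC from -145, TGACTCA from -73 and TATAAA from -49. The Selp window held TGATTCA from -139 and GGAAAGGCC, likewise a match on the minus strand, from -14. Among 32851 promoters of the same length, 18.5% held the NF-kB-like letters, 7.81% the AP-1-like letters and 13.6% the TATA letters, so each motif alone is common. A match is a string of letters and was not measured as a bound site.

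Values are the authors' quantile-normalized probe intensities on a linear scale, and differences are on the log2 scale from 1 limma fit over the 12 arrays, given with their SE. A difference passed when its Benjamini-Hochberg adjusted p over all 25796 probes was under 0.05. Since probes differ in how they hybridise, no probe's level is set against another's. As a guide to background, each array's 95th percentile over 1504 probes for olfactory and vomeronasal receptors was used, called the receptor level here, which lay between 95.7 and 126. The Fbln5 probe read 80.6 to 97.4 over the 12 arrays and exceeded the receptor level on 0 of them, so it does not check the genotype labels. The WT LCA replicate 3 array stood apart, with a median correlation of 0.628 to the other arrays and 15.3% of tested probes above the receptor level. The other arrays had median correlations from 0.725 to 0.836, and WT RCA replicate 3, at 0.725 and 29.8%, was the next lowest. Of 16 endothelial markers, 9 to 15 exceeded the receptor level on each array, with Pecam1 between 753 and 3593. Of 10 smooth muscle markers, 2 to 8 did, with Acta2 at 287 to 1007 and Tpm1 at 138 to 989 above it on all 12 arrays, Myh11, at most 118, above it on 7, and Cnn1, at most 99.3, on 1. In RNA taken from many cells at once, fewer cells of a type and less RNA per cell cannot be told apart.

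Icam1 and Sele were the members with the widest gap between genotypes, and the gap was widest in the untouched artery. There, Icam1 was 2.72-fold and Sele 3.15-fold higher in KO than in WT by the fitted means, with no overlap between the groups, and neither passed over all probes. Selp ran the other way, and Icam2 was lower in ligated than in untouched arteries of both genotypes. In limma 0 of the 8 probes passed in any of the 5 comparisons of the design, against 0.0426% of all probes for KO against WT in LCA and 0% in each of the other 4. At an unadjusted p under 0.05 there were 0 of 8 for ligation in KO (7.54% of all probes) and 1 for ligation in WT (6.84%). There were 3 for KO against WT in LCA (6.46%), 3 for KO against WT in RCA (4.32%) and 1 for the interaction (3.62%).

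**Figure D1:**
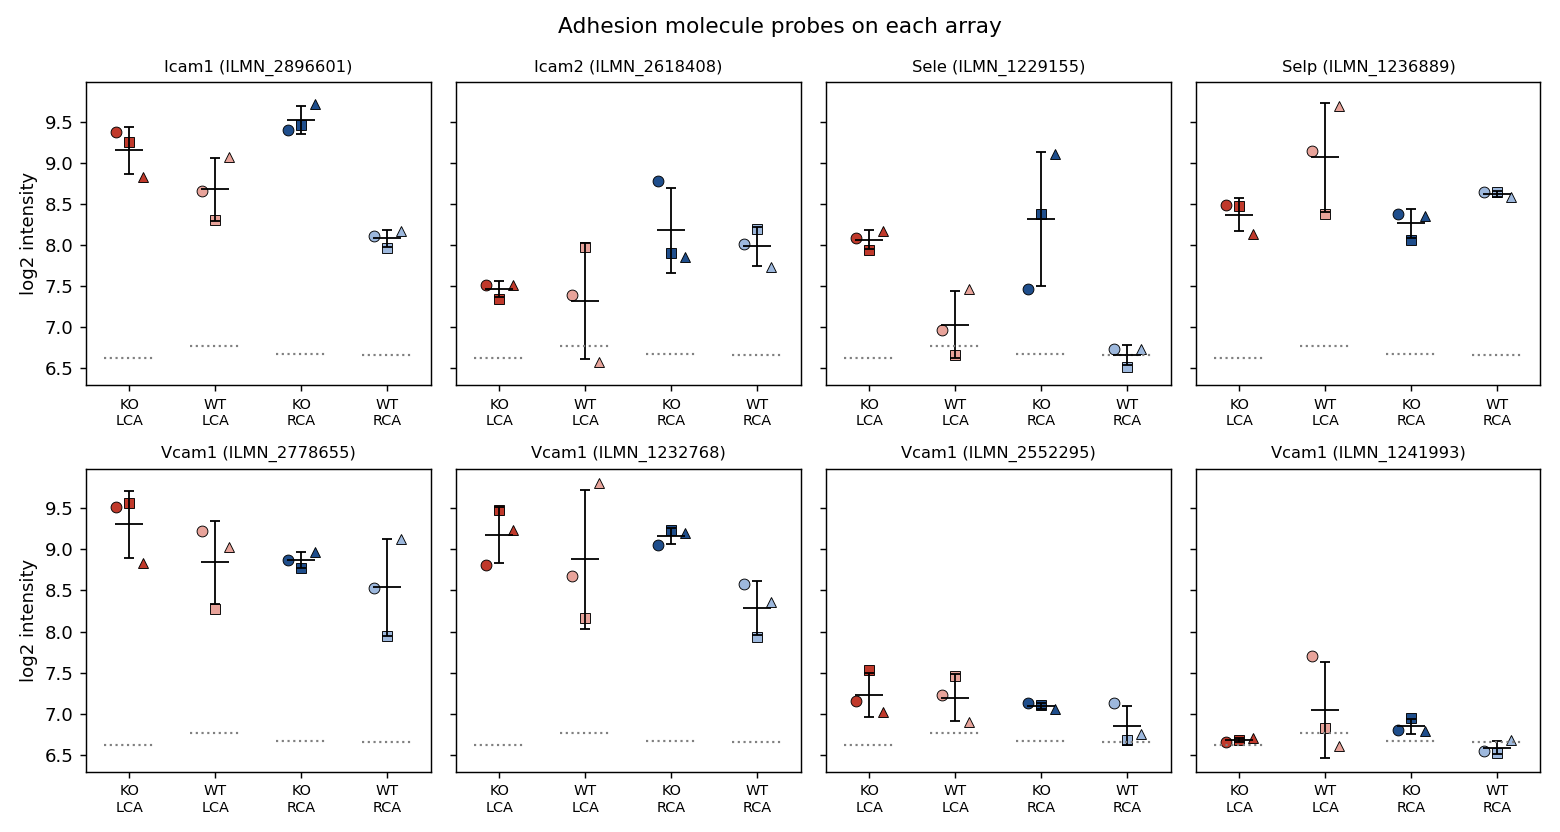
Intensity of each of the 8 adhesion molecule probes (vertical axis, log scale), with the 4 groups along the horizontal axis. Points are arrays, with circle, square and triangle for replicates 1, 2 and 3, bars give the mean and SD of 3 arrays, and the dotted grey line is the mean receptor level of the group. For Icam1 the KO RCA arrays lie at 675 to 843 and the WT RCA arrays at 250.0 to 286.

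Sele encodes E-selectin, which endothelium makes on activation and which slows rolling leukocytes. Its probe read 271, 245 and 287 in KO LCA, 125, 101 and 177 in WT LCA, 177, 331 and 548 in KO RCA, and 106, 91.5 and 106 in WT RCA. Every KO array lay above every WT array of the same side, the closest pair over all being the lowest KO RCA array at 176.9 and the highest WT LCA array at 176.8. It exceeded the receptor level on all 6 KO arrays, on 2 of 3 WT LCA arrays and on 1 of 3 WT RCA arrays. The means were 268 ± 21.5 (SD, n = 3) in KO LCA and 134 ± 38.7 in WT LCA, and 352 ± 187 in KO RCA and 101 ± 8.43 in WT RCA. The KO minus WT difference was 1.65 ± 0.35 in RCA (95% interval 0.88 to 2.43), the probe ranking 33 of 25796 by p with adjusted p = 0.622 in limma, and 1.03 ± 0.35 in LCA (0.26 to 1.80) with adjusted p = 0.592. WT values near background compress these differences. Ligation gave -0.25 ± 0.35 in KO and 0.37 ± 0.35 in WT, both within the spread, and the interaction was -0.62 ± 0.49.

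The spread of Sele was widest in KO RCA, where replicate 1 was lowest and replicate 3 highest. Without replicate 3 the KO minus WT difference in RCA was 1.26, without replicate 1 it was 2.08 with adjusted p = 0.0718, and the ligation difference in KO ran from -0.67 without KO RCA replicate 1 to 0.14 without KO RCA replicate 3. Red cell markers followed the same order on these arrays, with the 5 genes summing to 2559, 5780 and 9499 in KO RCA replicates 1, 2 and 3, against 1057, 2923 and 2708 in WT RCA. The sums were 2063, 4605 and 4172 in KO LCA and 2142, 2902 and 3381 in WT LCA. In WT RCA, KO LCA and WT LCA their order differed from that of Sele. Their mean log2 level differed by 1.00 ± 0.48 between KO RCA and WT RCA and by 0.27 ± 0.48 between KO LCA and WT LCA. The haemoglobin genes Hba-a1, Hbb-bt and Hbb-bs exceeded the receptor level on all 12 arrays, Alas2 on 6 and Slc4a1 on 3. The part of blood cell RNA in the Sele result was not tested.

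Selp encodes P-selectin, which is stored in endothelium and platelets and moves to the surface within minutes of activation. Its probe read 359, 356 and 281 in KO LCA, 564, 331 and 825 in WT LCA, 332, 266 and 327 in KO RCA, and 400.4, 398 and 383 in WT RCA. All 3 KO RCA arrays lay below all 3 WT RCA arrays, and the LCA groups overlapped because WT LCA replicate 2 lay among the KO arrays. Selp averaged 332 ± 43.9 in KO LCA and 573 ± 247 in WT LCA, and 308 ± 36.6 in KO RCA and 394 ± 9.33 in WT RCA (SD, n = 3 each). The KO minus WT difference was -0.70 ± 0.27 in LCA (unadjusted p = 0.0260, adjusted p = 0.677 in limma) and -0.36 ± 0.27 in RCA (unadjusted p = 0.206, adjusted p = 1.00). Without WT LCA replicate 3, which read highest, the LCA value was -0.39, and without replicate 2 it was -1.05. The ligation difference was 0.11 ± 0.27 in KO and 0.44 ± 0.27 in WT with the WT value at 0.13 without WT LCA replicate 3. Platelet markers summed to 973 to 1084 in KO LCA and 839 to 1079 in WT LCA, and to 901 to 1139 in KO RCA and 851 to 964 in WT RCA. Of these 8 markers, Gp9 exceeded the receptor level on all 12 arrays, Tubb1 on 7, Pf4 on 4, Ppbp on 1, and Itga2b, Gp1bb, Gp6 and Treml1 on 0. Their mean log2 level was 0.10 ± 0.07 higher in KO than in WT on each side, and the part of platelet RNA in the Selp values was not tested.

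Icam1 encodes ICAM-1, the ligand of the leukocyte integrins LFA-1 and Mac-1 in firm adhesion and crossing. Its probe read 665, 608 and 452 in KO LCA, 403, 315 and 535 in WT LCA, 675, 702 and 843 in KO RCA, and 276, 250.0 and 286 in WT RCA. The KO RCA arrays were the 3 highest of all 12 and the WT RCA arrays the 3 lowest, and the LCA groups lay between and overlapped each other. The means were 575 ± 110 in KO LCA and 418 ± 111 in WT LCA, and 740 ± 90.0 in KO RCA and 271 ± 18.8 in WT RCA (SD, n = 3 each). In RCA the KO minus WT difference was 1.44 ± 0.20 (95% interval 1.01 to 1.88), ranking 2 of 25796 by p, with unadjusted p = 2.76e-05 and adjusted p = 0.215 in limma. It lay between 1.35 and 1.51 when any 1 of the 6 RCA arrays was left out. In LCA it was 0.47 ± 0.20 (0.04 to 0.91), unadjusted p = 0.0365 and adjusted p = 0.732, and it ranged from 0.29 without WT LCA replicate 2 to 0.67 without WT LCA replicate 3.

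The side difference of Icam1 had opposite signs in the genotypes. Ligation gave -0.38 ± 0.20 in KO (95% interval -0.81 to 0.06, adjusted p = 0.697 in limma), with all KO LCA arrays below all KO RCA arrays. In WT it gave 0.59 ± 0.20 (0.16 to 1.03, adjusted p = 0.670), with all WT LCA arrays above all WT RCA arrays. The interaction was -0.97 ± 0.28, ranking 70 of 25796, with unadjusted p = 0.00595 and adjusted p = 0.919, so the difference between the genotypes did not pass over all probes. Endothelial markers averaged lower in ligated arteries, with a mean log2 difference between LCA and RCA of -0.22 ± 0.08 in KO and -0.26 ± 0.08 in WT. The 16 markers did not all move together. In KO 12 lay below 0 and 4 above, in WT 9 below and 7 above, and 0 passed in either. Set against the endothelial mean of each array, Icam1 averaged 1.52 ± 0.32 log2 units above it in KO LCA and 1.00 ± 0.54 in WT LCA, and 1.68 ± 0.25 in KO RCA and 0.14 ± 0.17 in WT RCA (SD, n = 3 each). On that scale the KO LCA arrays, from 1.15 to 1.75, overlapped the KO RCA arrays, from 1.46 to 1.96, while the WT LCA arrays, from 0.52 to 1.58, stayed above the WT RCA arrays, from -0.04 to 0.29. Between genotypes the endothelial markers differed on average by -0.09 ± 0.08 in RCA and -0.05 ± 0.08 in LCA. On each side 9 of the 16 lay above 0 and 7 below, with a median of 0.02 in RCA and 0.04 in LCA. Leukocytes also make ICAM-1, and the 11 leukocyte markers summed to 1273 to 1515 in KO LCA and 1179 to 2665 in WT LCA, and 1038 to 1675 in KO RCA and 1064 to 1250 in WT RCA. Of these markers, 1 to 8 exceeded the receptor level on each array. The myeloid genes S100a9, Lyz2, Tyrobp and S100a8 did so on 11, 10, 9 and 7 of 12 arrays, Fcer1g on 4, Adgre1 on 3, the pan-leukocyte gene Ptprc, Csf1r and Cd14 on 2 each, and Cd3e and Itgam on 0. The highest leukocyte sum was on WT LCA replicate 1, which was not the highest WT LCA array for Icam1, and the part of leukocyte RNA in these differences was not tested.

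Icam2 encodes ICAM-2, a further LFA-1 ligand that resting endothelium already carries. Its probe read 183, 162 and 183 in KO LCA, 167, 252 and 95.4 in WT LCA, 438, 238 and 231 in KO RCA, and 258, 293 and 213 in WT RCA. In KO all LCA arrays lay below all RCA arrays, while in WT the groups overlapped because WT LCA replicate 2 lay above WT RCA replicate 3. WT LCA replicate 3, the array with the highest receptor level, was the single array on which Icam2 was below that level. Icam2 averaged 176 ± 11.6 in KO LCA and 172 ± 78.5 in WT LCA, and 302 ± 117 in KO RCA and 255 ± 40.4 in WT RCA (SD, n = 3 each). Ligation gave -0.72 ± 0.34 in KO (unadjusted p = 0.0608, adjusted p = 0.677 in limma) and -0.67 ± 0.34 in WT (0.0784 and 0.699). Leaving out KO RCA replicate 1 brought the KO value to -0.42, and leaving out WT LCA replicate 3 brought the WT value to -0.30. Relative to the endothelial mean, Icam2 averaged -0.17 ± 0.06 log2 units in KO LCA and -0.36 ± 0.56 in WT LCA, and 0.33 ± 0.44 in KO RCA and 0.04 ± 0.16 in WT RCA (SD, n = 3 each). KO and WT differed by 0.14 ± 0.34 in LCA (95% interval -0.62 to 0.90) and 0.19 ± 0.34 in RCA (-0.56 to 0.95), and the LCA value was -0.23 without WT LCA replicate 3 while the RCA value was -0.11 without KO RCA replicate 1.

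Vcam1 encodes VCAM-1, which binds the integrin VLA-4 on monocytes and lymphocytes. The 4 probes differ in target, with ILMN_2778655 annotated to a RefSeq transcript and ILMN_1232768, ILMN_2552295 and ILMN_1241993 to cDNA clones. ILMN_2778655 read 734, 754 and 457 in KO LCA, 599, 309 and 522 in WT LCA, 467, 437 and 502 in KO RCA, and 369, 247 and 561 in WT RCA. Its groups overlapped in every comparison. The KO minus WT difference was 0.46 ± 0.33 in LCA and 0.33 ± 0.33 in RCA, and ligation gave 0.43 ± 0.33 in KO and 0.30 ± 0.33 in WT, with adjusted p from 0.772 to 1.00 in limma. These values rest on single arrays: without WT RCA replicate 2 the RCA value was 0.04 and the WT ligation value 0.011, without WT RCA replicate 3 they were 0.63 and 0.60, and without KO LCA replicate 3 the KO ligation value was 0.67. The LCA value was 0.18 without WT LCA replicate 2 and 0.70 without KO LCA replicate 3.

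The clone probe ILMN_1232768 read 448, 715 and 601 in KO LCA, 408, 286 and 897 in WT LCA, 532, 601 and 588 in KO RCA, and 382, 245 and 327 in WT RCA. The KO RCA arrays lay above all WT RCA arrays, and the other comparisons overlapped. Its KO minus WT difference in RCA, 0.87 ± 0.36, was the Vcam1 value with the smallest p (unadjusted p = 0.0369, adjusted p = 1.00). In LCA it was 0.29 ± 0.36, ranging from -0.066 without WT LCA replicate 2 to 0.76 without WT LCA replicate 3. Ligation gave 0.01 ± 0.36 in KO and 0.59 ± 0.36 in WT, the WT value being 0.13 without WT LCA replicate 3.

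ILMN_2552295 was dimmer, between 103 and 185 over the 12 arrays, and its group means were 152 ± 29.1 in KO LCA and 148 ± 28.8 in WT LCA, and 137 ± 3.66 in KO RCA and 117 ± 20.3 in WT RCA (SD, n = 3 each). Its ligation difference was 0.14 ± 0.17 in KO and 0.34 ± 0.17 in WT, and KO minus WT was 0.04 ± 0.17 in LCA and 0.24 ± 0.17 in RCA, with overlap in each. ILMN_1241993 read 101, 102 and 104 in KO LCA, 209, 113 and 97.3 in WT LCA, 111, 124 and 111 in KO RCA, and 93.8, 92.2 and 102 in WT RCA, so that 1 WT LCA array stood out from values near background. It exceeded the receptor level on 0 of 3 WT RCA arrays, and against that level it was at least 1.14-fold higher in KO RCA and at least 1.31-fold higher in WT LCA (adjusted p = 1.00 and 0.699 in limma). On the values as read, the ligation difference in WT was 0.46 ± 0.22, and 0.13 without WT LCA replicate 1. All KO RCA arrays lay above all WT RCA arrays and all KO LCA arrays below all KO RCA arrays, a ligation difference of -0.17 ± 0.22. In LCA the KO minus WT difference was -0.37 ± 0.22 for ILMN_1241993 and 0.04 to 0.46 for the other 3 probes. Without WT LCA replicate 1 the value of ILMN_1241993 was -0.036. The sign turned for ILMN_1232768 without WT LCA replicate 2, at -0.066, and for ILMN_2552295 without WT LCA replicate 3, at -0.11. On WT LCA replicate 1, where ILMN_1241993 was highest, the leukocyte markers had their highest sum of any array, 2665. The part of leukocyte RNA in that value was not tested.

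**Figure D2:**
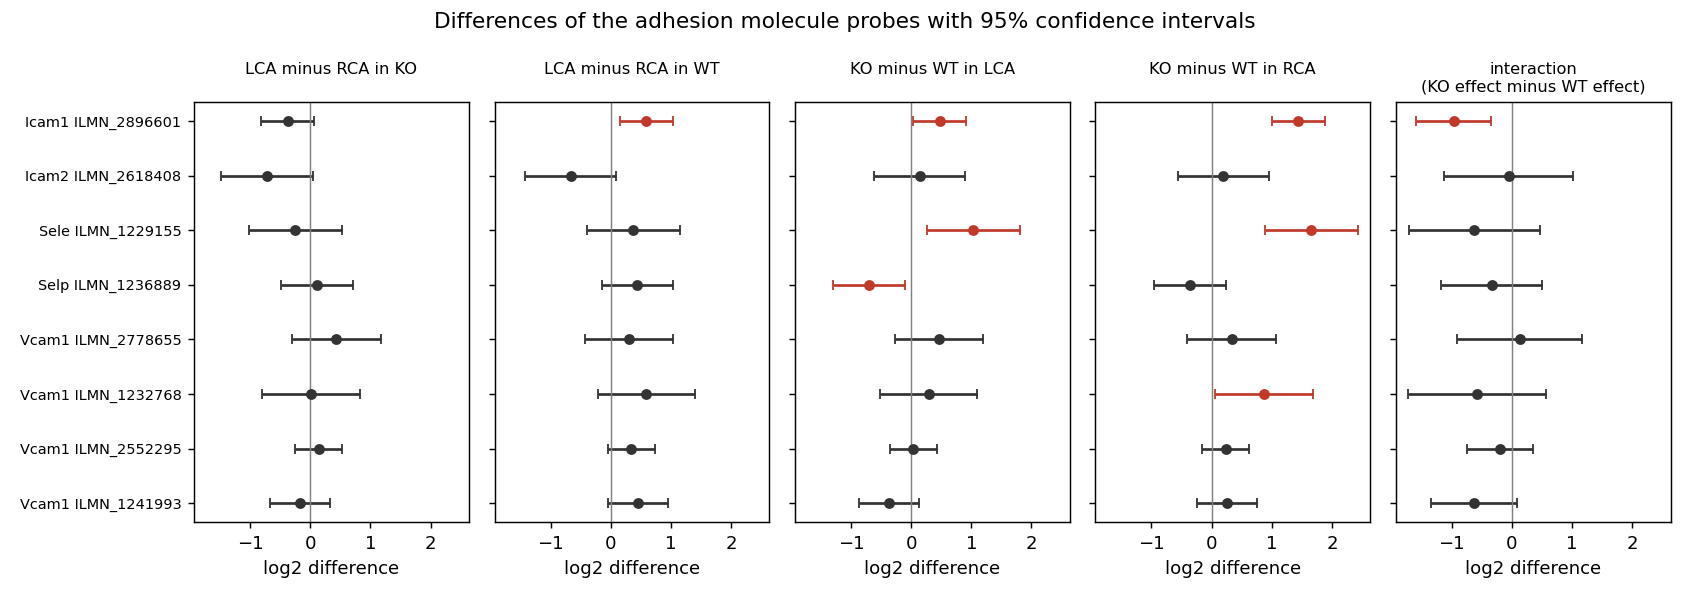
Log2 differences (horizontal axis) of the 8 adhesion molecule probes (rows) in the 4 comparisons between groups and in the interaction. Bars give the 95% interval of the limma fit, and red marks an unadjusted p under 0.05. In KO minus WT in RCA, Icam1 lies at 1.44 and Sele at 1.65, and Selp at -0.36.

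Across the members, KO against WT in the untouched artery was the comparison in which most probes separated. There, 4 of 8 probes had all KO arrays above all WT arrays (Icam1, Sele and 2 of Vcam1), against 6.25% of all probes tested, and 1 had them all below (Selp), against 5.34%. With an unadjusted p under 0.05 there were 3 higher, against 2.40% of all probes, and 0 lower, against 1.93%. The median difference was 0.30 for the 8 probes and 0.00 for all probes. The members were chosen with earlier results known and 4 of the probes share a gene, so these counts are a description. No probe of the whole array passed in this comparison (0%), where 1115 probes, or 4.32%, had an unadjusted p under 0.05. In LCA, 1 of 8 probes (Sele) was higher without overlap, against 7.61%, and 0 lower, against 5.35%, while 6.46% of all probes had an unadjusted p under 0.05. At that level there were 2 higher (Sele, Icam1) and 1 lower (Selp), against 4.49% and 1.97%. Their median was 0.22, against 0.00 for all probes, and 11 probes of the array passed, or 0.0426%, none of them a member.

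For ligation in KO, 3 of 8 probes had all LCA arrays below all RCA arrays (Icam1, Icam2 and ILMN_1241993 of Vcam1), against 11.2% of all probes, and 0 lay above, against 8.90%. Their median was -0.08, against 0.00 for all probes, and 4 probes lay on each side of 0. For ligation in WT, 1 probe (Icam1) was higher without overlap, against 4.40%, and 0 lower, against 6.54%. Here 7 of 8 probes lay above 0, all but Icam2, with a median of 0.41, against 0.00. In both ligation comparisons 0% of all probes passed in limma, while 7.54% in KO and 6.84% in WT had an unadjusted p under 0.05. For the interaction, 7 of 8 probes lay below 0, all but ILMN_2778655 of Vcam1, with a median of -0.46, against 0.00, and 0% of all probes passed while 3.62% had an unadjusted p under 0.05. The comparisons share arrays: the WT LCA arrays, replicate 3 among them, enter the WT ligation, LCA and interaction values together.

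After the values had been seen, the genotype difference was also averaged over both sides and the side difference over both genotypes. Averaged over sides, 1 of 8 probes passed, against 0.124% of all probes (32 of 25796), and 6.43% of all probes had an unadjusted p under 0.05. It was Icam1, at 0.96 ± 0.14 (95% interval 0.65 to 1.27) with adjusted p = 0.0427 in limma, although the 6 KO and 6 WT arrays overlapped. It was lost when 9 of the 12 arrays were left out in turn, with adjusted p between 0.0276 and 0.123 over these fits, and it stayed past the threshold without KO LCA replicate 3, WT LCA replicate 2 or WT LCA replicate 3. Its adjusted p was also 0.0527 with no filter on dim probes, 0.105 with the replicate number as a fixed block, 0.0564 with it as a random block, 0.215 with trend and robust eBayes and 0.0569 without WT LCA and WT RCA replicate 3 together. Sele gave 1.34 ± 0.24 with adjusted p = 0.101, and its 6 KO arrays lay above its 6 WT arrays, as for 0.733% of all probes; without KO RCA replicate 1 it passed at adjusted p = 0.0181. Selp gave -0.53 ± 0.19 with adjusted p = 0.604. Averaged over genotypes, 0 of 8 probes and 0% of all probes passed for ligation in limma, 10.6% of all probes had an unadjusted p under 0.05, and of the members Icam2 did, at -0.69 ± 0.24 with adjusted p = 0.422.

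**Figure D3:**
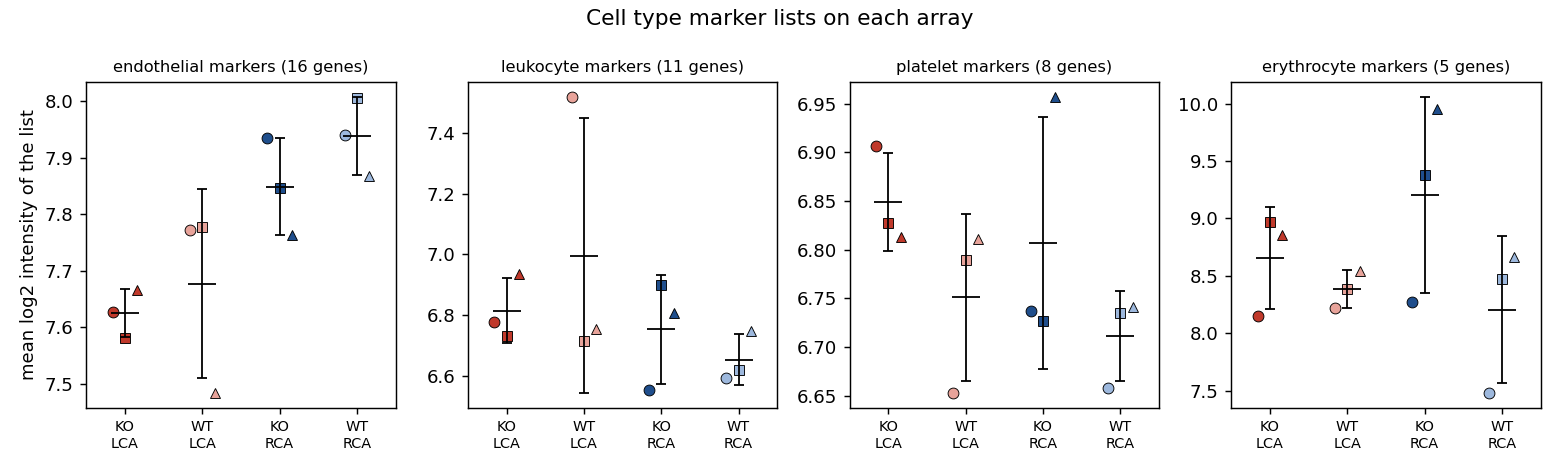
Mean log2 intensity of endothelial, leukocyte, platelet and red cell marker genes (vertical axis) for the arrays of the 4 groups along the horizontal axis. Symbols mark replicates, and bars give the mean and SD of 3 arrays. Endothelial markers average 7.63 in KO LCA and 7.68 in WT LCA, and 7.85 in KO RCA and 7.94 in WT RCA, and the red cell markers spread widest in KO RCA.

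The mean marker level of several other cell types also differed between the groups. Smooth muscle markers were 0.69 ± 0.12 log2 units higher in KO LCA than in WT LCA and 0.33 ± 0.12 higher in KO RCA than in WT RCA, by the mean of 10 genes. Of the 9 tested, 8 lay above 0 and 1 below in LCA, with a median of 0.24. In RCA 7 lay above and 2 below, with a median of 0.19. Fibroblast markers were 0.50 ± 0.13 higher in KO LCA than in WT LCA and -0.04 ± 0.13 apart in RCA. Adipocyte markers averaged 0.38 ± 0.10 higher in KO LCA than in WT LCA and 0.00 ± 0.10 apart in RCA. Of the 6 tested, 3 lay above 0 and 3 below on each side, with a median of 0.09 in LCA and 0.02 in RCA. Fabp4 exceeded the receptor level on 11 arrays, Pck1 on 6, Adipoq, Cidec and Lipe on 2 each, and Plin1 and Retn on 0. Leukocyte markers differed by -0.18 ± 0.21 between genotypes in LCA and by 0.10 ± 0.21 in RCA. The part of cell composition in the LCA genotype differences was not tested.

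The genes nearest to each member in profile were found by the root mean square difference between centred log2 values over the 12 arrays, among 14752 genes, as a description. Nearest to Icam1 were Vmp1, an autophagy gene, at 0.25, Rhob, an endosomal GTPase, at 0.30, and the sulfotransferase Chst1 at 0.36, where Icam1 itself varied by 0.58 about its mean. Vmp1 averaged 309 in KO LCA and 180 in WT LCA, and 272 in KO RCA and 127 in WT RCA. Rhob averaged 734 in KO LCA and 597 in WT LCA, and 895 in KO RCA and 421 in WT RCA. For Sele they were the intermediate filament gene Nes at 0.37, Icam1 at 0.38 and Vmp1 at 0.38, against its own 0.79, so that Icam1 is the one member among another's nearest genes. For Icam2 they were the endothelial matrix gene Mmrn2 at 0.23, Mcfd2 at 0.25 and Slc66a2 at 0.26, against 0.52. Mmrn2 averaged 179 in KO LCA and 182 in WT LCA, and 316 in KO RCA and 290.3 in WT RCA. For Vcam1, by ILMN_2778655, they were Rps25, Btf3 and Eif1a, at 0.28 to 0.31 against 0.45, and for Selp they were Epg5, Zcchc17 and Pick1, at 0.18 to 0.21 against 0.43. Epg5 averaged 95.8 in KO LCA and 170 in WT LCA, and 96.8 in KO RCA and 105 in WT RCA. Zcchc17 and Pick1 averaged 146 and 148 in WT LCA and 95.2 to 114 in the other groups, so these Selp neighbours lay near the receptor level outside WT LCA.

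The genes around the adhesion molecules were read from 9 lists of 105 genes in all, of which 88 were tested, chosen with earlier results of these data known. In none of the 5 comparisons did any of the 88 pass in limma, while at an unadjusted p under 0.05 there were 9 for ligation in KO (5 higher, 4 lower), or 10.2% of the genes, against 7.54% of all probes, and 17 in WT (9 and 8), or 19.3%, against 6.84%. There were 14 for KO against WT in LCA (10 and 4), or 15.9%, against 6.46%, 12 in RCA (10 and 2), or 13.6%, against 4.32%, and 6 for the interaction (2 and 4), or 6.82%, against 3.62%. Counts given for each list are of genes at this level, and with so few genes a list, 1 gene in a list is no result about it. The 2 members of each list with the smallest p are named for each comparison. Each gene was read by its brightest probe over the 12 arrays, and values of other tested probes of the gene are given at the end of each account. The shares over all probes instead count every tested probe, dim ones among them, so the shares set side by side are not like for like.

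In the untouched artery, KO against WT, the named genes all had adjusted p = 1.00, and 2.40% of all probes were higher and 1.93% lower at an unadjusted p under 0.05. Among Weibel-Palade body partners of P-selectin, 2 of 7 were higher at that level and 0 lower: Plat, tissue plasminogen activator, at 0.75 ± 0.23 and Edn1, the endothelin precursor, at 1.24 ± 0.41. Selp itself was lower there, at -0.36 ± 0.27. NF-kB subunits and inhibitors had 3 of 14 higher and 0 lower, with Tnip1, an inhibitor of the pathway, at 0.18 ± 0.07 and Bcl3 at least 1.01-fold higher against background. The leukocyte counter-receptors had 1 of 9 higher, the hyaluronan receptor and E-selectin ligand Cd44 at 0.62 ± 0.21, with the VLA-4 subunit Itga4 at 0.12 ± 0.07. Other junction and adhesion molecules had 1 higher and 1 lower of 14, Mcam, an endothelial adhesion molecule, at 0.28 ± 0.11 and Jam2, a junctional molecule, at -0.55 ± 0.18. Cytokine receptors had 1 higher and 1 lower of 11, with the endotoxin receptor Tlr4 at 0.51 ± 0.19 and the interleukin-1 receptor Il1r1 at least 1.44-fold lower in KO, where it was at background. Flow-responsive regulators had 1 of 10 higher, the transcription factor Klf6 at 0.53 ± 0.22, with Bmp4 at 0.82 ± 0.47. Of 12 induced cytokines and chemokines 1 was higher, Ccl5, which was near background in both groups, and the membrane chemokine Cx3cl1 was at least 1.10-fold higher. The selectin ligand enzymes (0 of 6) had St3gal4, a sialyltransferase, at -0.22 ± 0.10 and Chst2 at least 1.01-fold higher, and the cytoskeletal anchors (0 of 6) had moesin, Msn, at 0.39 ± 0.29 and alpha-actinin, Actn1, at -0.96 ± 0.76. Bcl3 and Chst2 each exceeded the receptor level on 1 KO RCA array and 0 WT RCA arrays. Of 11 named genes with other tested probes, 4 had 1 or more of opposite sign. The other probe of Plat gave -0.07, those of Tnip1 -0.14 and -0.06, those of Itga4 -0.07 and 0.02, and the 5 of Jam2 -0.48 to 0.06. The 7 of Cd44 gave 0.01 to 0.86, those of Tlr4 0.12 and 0.22, those of Msn 0.14 and 0.63, those of Mcam 0.49 each, that of Il1r1 -0.10, that of Klf6 0.35 and that of Bmp4 0.80.

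In the ligated artery, KO against WT, the named genes had adjusted p from 0.0975 to 0.788, and 4.49% of all probes were higher and 1.97% lower at an unadjusted p under 0.05. Mcam, at 0.69 ± 0.11, and Jam2, at -0.91 ± 0.18 with adjusted p = 0.173, had the smallest p of the junction list (1 higher and 1 lower of 14), with no overlap between KO LCA and WT LCA. Weibel-Palade partners had 3 of 7 higher and 0 lower, with the angiopoietin Angpt2 at 0.58 ± 0.15 and Plat at 0.76 ± 0.23. The NF-kB list had 2 of 14 higher, the p65 subunit Rela at 0.76 ± 0.19 and the atypical inhibitor Nfkbiz at 0.62 ± 0.18. Of the anchors 1 of 6 was higher, Msn at 1.06 ± 0.29, which links ICAM-1 and VCAM-1 to actin, with Actn1 at 1.17 ± 0.76. Klf6 was the 1 of 10 flow-responsive regulators, at 0.92 ± 0.22, and Hmox1, haem oxygenase, was near background in WT LCA with no bound. Cd44 was the 1 of 9 counter-receptors, at 0.57 ± 0.21, with Cd24a, a P-selectin ligand, at -0.92 ± 0.42. Cytokine receptors had 1 higher and 1 lower of 11, with the receptor Ager at least 1.06-fold higher and the shared interleukin-6 receptor chain Il6st at -0.91 ± 0.35. Selectin ligand enzymes had 1 of 6 lower, the fucosyltransferase Fut4, at least 1.19-fold lower, with St3gal4 at -0.19 ± 0.10. Fut4 exceeded the receptor level on 1 array only, a WT LCA array, so its fold rests on that group's single reading above background. Of the induced chemokines 1 of 12 was lower, Cxcl9, near background in KO LCA with no bound, and the neutrophil chemokine Cxcl1 was at -0.45 ± 0.25. Of 8 named genes with other tested probes, 2 had 1 or more of opposite sign. For Cd44 the 7 others gave -0.52 to 0.50, 4 of them below 0, and for Jam2 the 5 others gave -0.84 to 0.00. The other probe of Plat gave 0.02, those of Msn 0.06 and 1.18, those of Mcam 0.67 and 0.75, that of Angpt2 0.35, that of Klf6 0.39 and that of Il6st -0.38.

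For ligation, Klf2 and Klf4 of the flow-responsive regulators had the smallest p of the named genes in WT. In KO, 1 member was higher and 3 lower of 10 at an unadjusted p under 0.05, and in WT 0 and 4. The shear-induced factors Klf2 and Klf4, which restrain adhesion molecule expression in cultured endothelium, were at -0.83 ± 0.16 and -1.18 ± 0.29 in KO and at -0.87 ± 0.16 and -1.59 ± 0.29 in WT, with adjusted p = 0.627 in KO and 0.318 in WT and no overlap between sides. Other probes of Klf4 gave -0.62 and -0.07 in KO and -1.42 and -0.84 in WT. The named genes of all lists had adjusted p from 0.627 to 0.819 in KO and from 0.318 to 0.699 in WT.

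In KO, where 3.25% of all probes were higher with ligation and 4.30% lower at an unadjusted p under 0.05, the NF-kB list had 1 of 14 higher, the inhibitor Nfkbia at 0.43 ± 0.18, with Nfkbib at least 1.01-fold higher, and the junction list 1 of 14, Mcam at 0.41 ± 0.11, with Jam2 at -0.33 ± 0.18. Weibel-Palade partners had 1 of 7 higher, Angpt2 at 0.43 ± 0.15, with Edn1 at 0.72 ± 0.41. Cytokine receptors had 1 higher and 1 lower of 11, Ager at least 1.13-fold higher and Il1rap at least 1.04-fold lower. The other lists had 0 at that level, with Glg1, an E-selectin ligand, at -0.58 ± 0.38, Itga4 at -0.11 ± 0.07, St3gal4 at -0.18 ± 0.10, St3gal6 at -0.17 ± 0.11, Msn at 0.60 ± 0.29 and Actn1 at 0.87 ± 0.76. Of the cytokines, Il1a and Ccl5 were near background. Of 10 named genes with other tested probes, 4 had 1 or more of opposite sign, with 0.40 for Glg1, -0.13 for Nfkbia, -0.06 and 0.25 for Msn and -0.10 to 0.13 for the 3 of Il1rap. The others gave 0.15 and 0.16 for Mcam, 0.17 for Angpt2, -0.74 to -0.07 for the 5 of Jam2, -0.04 for St3gal6 and -0.01 and -0.002 for Itga4.

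In WT, where 2.46% of all probes were higher with ligation and 4.38% lower at that level, the induced cytokines and chemokines had 2 of 12 higher and 10 of 12 above 0, with a list median of 0.13 against 0.00 for all probes; Cxcl1 was at 0.72 ± 0.25 and Ccl5 was near background. Cytokine receptors had 2 of 11 higher, Tlr4 at 0.76 ± 0.19 and the TNF receptor Tnfrsf1a at 0.37 ± 0.16. The NF-kB list had 2 higher and 1 lower of 14, Nfkbiz at -0.57 ± 0.18 and Nfkbib near background. Counter-receptors had 1 higher and 1 lower of 9, Podxl, a sialomucin, at -1.07 ± 0.25 and Selplg, the P-selectin ligand PSGL-1, at least 1.01-fold higher. Weibel-Palade partners had 1 higher and 1 lower of 7, with Rab27a, which controls granule release, at -0.71 ± 0.21 and Edn1 at 0.95 ± 0.41. The junction list had 1 of 14 lower, VE-cadherin, Cdh5, at -0.48 ± 0.14, with Nectin2 at least 1.06-fold lower, and the selectin ligand enzymes 1 of 6 higher, Fut4, at least 1.16-fold, with St3gal4 at -0.21 ± 0.10. Fut4 and Selplg each exceeded the receptor level on 1 array only, a WT LCA array. Of the anchors 0 of 6 were at that level, with cortactin, Cttn, at -0.23 ± 0.11 and p120-catenin, Ctnnd1, at -0.52 ± 0.30. Of 8 named genes with other tested probes, 4 had 1 or more of opposite sign, with -0.03 and 0.04 for Tlr4, -0.08 for Selplg, -0.09 and 0.05 for Nectin2 and -0.12 to 0.09 for the 3 of Ctnnd1. The others gave 0.02 and 0.10 for Tnfrsf1a, -0.85 for Cdh5 and -0.14 to 0.00 for the 3 of Cttn. These WT values share the WT LCA replicate 1 array, with the highest leukocyte sum, and replicate 3, with the lowest correlation.

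The interaction, the ligation difference in KO less that in WT, had adjusted p = 0.919 for all genes named here, and 2.25% of all probes were above 0 and 1.37% below at an unadjusted p under 0.05. Tlr4 was at -0.87 ± 0.27, the same sign as Icam1, and Nfkbiz at 0.64 ± 0.25, Mcam at 0.40 ± 0.16, Cdh5 at 0.40 ± 0.20, Podxl at 0.75 ± 0.36, Msn at 0.67 ± 0.41, Actn1 at 2.13 ± 1.08, Rab27a at 0.58 ± 0.30 and Klf6 at 0.38 ± 0.31 had the opposite sign. Tnip1 was at -0.22 ± 0.10 and St3gal6 at -0.27 ± 0.16. Other tested probes gave -0.05 and -0.03 for Tlr4, 0.02 and 0.08 for Tnip1, -0.08 and 0.54 for Msn, 0.18 and 0.26 for Mcam, 0.57 for Cdh5, 0.03 for Klf6 and -0.03 for St3gal6, so that Tnip1 and Msn had other probes of opposite sign. Angpt2, Hmox1, Ager, Fut4, Selplg, Ccl5 and Cxcl9, also named by the rule, were at background in at least 1 group, so that no interaction value is given for them.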

How the data were processed

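RNA from carotid arteries, extracted with a Qiagen miRNeasy kit and labelled with biotin using the Ambion MessageAmp kit per the labels' protocols, was read on 12 one-colour Illumina arrays, with groups taken from the sample titles. Deposited values are each probe's linear intensity. The sorted values of the arrays differed by at most 0.564%, as after quantile normalization by the authors, and the median was 93.6 with a lowest value of 72.4. None of scanner software, background step and chip is given in the sources used here, so no chip could be tested as a batch. Precision is limited by the number of arrays.

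Gene symbols came from the platform annotation, which gave 34885 probes 1 symbol, 18 several and 10378 none, and those with several or none were left out. Probes at or above the array median on at least 3 arrays were tested (25796). Log2 intensities, with a floor of 1, entered 1 limma fit (version 3.58.1, R 4.3.3) on the 4 group means with eBayes. Tests were two-sided, with Benjamini-Hochberg adjustment over all probes of a comparison. A probe above the receptor level on no array of a group was set there at the higher of that level and its own value on each array, which gives the "at least" folds. No arrays were identical in value. The fit was tested on simulated data. The named genes were every member probe, the 3 nearest genes by profile per member, and the 2 genes with the smallest p per list and comparison. The members and lists were chosen with earlier results of these data known. Alternatives changed the filter, gene level, scale, normalization, array weights, eBayes settings, the samples in the fit, the replicate block and each array in turn.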

Additional observations from a re-analysis of the deposited data

Results flagged for a closer look

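Icam1 was singled out because every ligated artery of one genotype lay on one side of its untouched arteries and every ligated artery of the other genotype on the opposite side. The LCA minus RCA difference was -0.38 ± 0.20 log2 units in KO, with 665, 608 and 452 in KO LCA against 675, 702 and 843 in KO RCA. It was 0.59 ± 0.20 in WT, with 403, 315 and 535 in WT LCA against 276, 250.0 and 286 in WT RCA. The interaction term tests this difference, and gave -0.97 ± 0.28 with unadjusted p = 0.00595 and adjusted p = 0.919 in limma over 25796 probes. Icam1 was picked for this separation, so the unadjusted p follows the selection and is a description. The interaction ranged from -1.16 to -0.77 when each of the 12 arrays was left out in turn. The KO difference was -0.21 without KO LCA replicate 3.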

How the results depend on the processing

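No member probe passed in any of the 5 comparisons of the design under the alternatives run. Of 1107 values for 56 member results over the alternatives, 1058 kept direction and side of the threshold, 33 changed sign, 14 no longer passed and 2 newly passed. The 14 are all Icam1 averaged over sides. The 2 are Sele averaged over sides, adjusted p = 0.0412 after subtracting the receptor median and adding 16, and 0.0181 without KO RCA replicate 1. Of 1695 values of list genes, 1694 kept direction and side, and Klf6 in LCA passed without WT LCA and WT RCA replicate 3 (1.12, adjusted p = 0.0363), a setting chosen after seeing the data. The causes of these moves were not tested.

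Replicate numbers were not taken to pair arteries, since the labels do not say that they do. Deviations of same-numbered arrays of a genotype correlated at -0.02, 0.00 and 0.04 in KO and 0.04, 0.06 and 0.08 in WT. As deviations from means of 3 arrays over all tested probes, these cannot decide whether arteries came from the same mouse. For Icam1 averaged over sides, adjusted p was 0.105 with the replicate block fixed and 0.0564 with it random, 0.0527 with no filter, 0.215 with trend and robust eBayes and 0.0569 without WT LCA and WT RCA replicate 3, and the count of members passing was then 0. It was 2 after subtracting the receptor median.

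Over all probes, the KO minus WT count in LCA was 11, against 18 with a stricter filter, 1 at gene level, 4 with array weights and 0 after subtracting the receptor median, with trend and robust eBayes, with the 2 groups alone or with the fixed replicate block. Averaged over sides it was 32, against 18 at gene level, 1 with trend and robust, 19 with the fixed replicate block and 11 without WT LCA and WT RCA replicate 3. Without those 2 arrays 11 probes passed for ligation in WT, 7 for KO minus WT in RCA and 4 for ligation averaged over genotypes, and array weights gave 1 for ligation in WT. Leaving out 1 array gave 0 to 25 probes in LCA, 1 to 5 in RCA, 0 to 5 for ligation in KO, 1 to 10 in WT, 0 to 3 for the interaction, 0 to 3 for ligation averaged and 5 to 45 for genotype averaged, and 0 to 1 members for the last.

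Some signs turned. After subtracting the receptor median, the Icam2 interaction was 0.32 and ILMN_1241993 of Vcam1 averaged over sides 0.071. With array weights, ILMN_1232768 of Vcam1 gave -0.037 for ligation in KO, ILMN_2552295 of Vcam1 -0.14 and Icam2 -0.15 for KO minus WT in LCA, Sele -0.022 for ligation averaged and Icam2 -0.018 for genotype averaged. Without WT LCA and WT RCA replicate 3, values were -0.11 and -0.23 for ILMN_2552295 and Icam2 in LCA, -0.075 for the interaction of ILMN_2778655 of Vcam1, -0.031 for Sele ligation averaged and -0.078 for Icam2 genotype averaged.

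Leaving out 1 array, ILMN_1232768 ranged from -0.14 to 0.19 for ligation in KO and -0.066 to 0.76 for LCA, ILMN_2552295 from -0.011 to 0.25 and -0.11 to 0.17, and ILMN_1241993 from -0.021 to 0.25 for ligation averaged and -0.16 to 0.11 for genotype averaged. Icam2 ranged from -0.42 to 0.28 for the interaction, -0.23 to 0.47 in LCA, -0.11 to 0.35 in RCA and -0.016 to 0.33 for genotype averaged, ILMN_2778655 from -0.17 to 0.42 for the interaction, and Sele from -0.67 to 0.14 for ligation in KO and -0.15 to 0.26 averaged. Signal over background limits Sele in WT and ILMN_1241993 of Vcam1, whose WT values lie near the receptor level.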
